A study of Mus musculus with 15 samples.

Results

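The genes described here are 51 mouse genes of DNA replication and mitosis, listed by name for their roles, with earlier results of these data known, among the 53379 genes counted. Of these, 27 act in or before DNA synthesis and 24 act in mitosis. Their mRNA was measured by RNA-seq in 15 libraries from 5 cell lines, with 3 libraries a line, each from RNA isolated at a different time point. All lines derive from mouse fetal liver cells of Cebpa fl/fl Cebpb fl/fl genotype that were immortalized with a retrovirus carrying MLL-ENL, a fusion oncogene of human leukemia, and all grew in medium with IL-3. The lines labelled wild-type (WT) are the 2 parental clones, here C1 and C2, in which both floxed genes were intact. The double-knockout (dKO) lines lack Cebpa and Cebpb, which encode the myeloid transcription factors C/EBPα and C/EBPβ, and expressed GFP. The LAPS line, made in C1, is the dKO with GFP and the rat C/EBPβ isoform LAP*. No exogenous gene is listed for WT, so the deletion, the vector and the derivation of the line cannot be told apart in a comparison of dKO with WT. Each clone came from a different mouse, and replicate libraries of a line are repeat harvests of 1 culture line, so the spread between them is that of harvests and not of animals.

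Cells license replication origins by loading the Mcm2-7 helicase in G1, and fire them in S phase with the help of GINS, polymerases, the sliding clamp PCNA and a supply of deoxynucleotides. Most of these genes are transcribed ahead of S phase by activating E2F factors once the RB proteins are released. The genes of mitosis follow in G2 under the MuvB complex with B-MYB (Mybl2) and FOXM1, and drive the cell into and out of division through cyclin B with CDK1, the Polo and Aurora kinases, the spindle checkpoint and the anaphase-promoting complex (APC/C). In myeloid cells C/EBP proteins are best known as differentiation factors that also restrain E2F.

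Promoters are printed for 4 replication and 3 mitosis members whose levels are described below, to show where letters of these factors' sites stand. RefSeq promoter windows (GRCm38.p6, 250 bases before to 50 after the start) matched 41 of the 51 members, and Gins2, Pole, Ccne2, Tpx2, Ccna2, Kif20a, Mcm4, Gins1, Foxm1 and Aurkb had no entry. The letters of an E2F site (any of TTTCGCGC, TTTGGCGC and TTTCCCGC, either strand) stood in the windows of 9 of 22 replication members and of 1 of 19 mitosis members, against 1.84% of 32851 windows of all genes. The letters TTTGAA of the cell cycle homology region (CHR), to which MuvB binds, stood in 14 of 19 mitosis members and 3 of 22 replication members, against 17.9% of all windows. CCAAT, the letters bound by NF-Y, stood in 17 of 19 mitosis and 14 of 22 replication members, against 37.4%. In the sequences, which run 5′ to 3′ from 160 bases before the start to the base before it, capitals mark these letters and the rarer CHR form TTCGAA on either strand.
Mcm5 (chr8:75109349-75109508, plus strand): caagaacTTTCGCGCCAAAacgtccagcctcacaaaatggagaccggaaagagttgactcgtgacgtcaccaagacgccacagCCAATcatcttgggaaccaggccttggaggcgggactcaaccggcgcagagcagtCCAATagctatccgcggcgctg
Mcm6 (chr1:128359706-128359865, minus strand): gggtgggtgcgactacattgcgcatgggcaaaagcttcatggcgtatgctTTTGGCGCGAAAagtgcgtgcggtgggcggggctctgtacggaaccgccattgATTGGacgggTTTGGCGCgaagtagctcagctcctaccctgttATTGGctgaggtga
Rrm2 (chr12:24708094-24708253, plus strand): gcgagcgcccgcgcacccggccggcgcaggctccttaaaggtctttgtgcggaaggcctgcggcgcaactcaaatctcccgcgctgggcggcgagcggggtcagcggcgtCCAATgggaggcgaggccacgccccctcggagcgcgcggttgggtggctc
E2f2 (chr4:136172114-136172273, plus strand): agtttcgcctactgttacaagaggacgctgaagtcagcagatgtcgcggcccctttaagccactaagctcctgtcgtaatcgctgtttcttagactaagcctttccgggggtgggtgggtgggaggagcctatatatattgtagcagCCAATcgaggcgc
Cdk1 (chr10:69352913-69353072, minus strand): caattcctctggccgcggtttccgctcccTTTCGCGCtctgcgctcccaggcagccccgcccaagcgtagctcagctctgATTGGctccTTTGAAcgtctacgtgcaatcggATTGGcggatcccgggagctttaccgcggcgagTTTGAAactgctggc
Top2a (chr11:99024190-99024349, minus strand): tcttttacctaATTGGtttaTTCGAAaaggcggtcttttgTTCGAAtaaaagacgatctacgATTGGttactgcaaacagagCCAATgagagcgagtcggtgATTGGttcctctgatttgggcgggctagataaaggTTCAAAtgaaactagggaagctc
Ccnb1 (chr13:100786487-100786646, minus strand): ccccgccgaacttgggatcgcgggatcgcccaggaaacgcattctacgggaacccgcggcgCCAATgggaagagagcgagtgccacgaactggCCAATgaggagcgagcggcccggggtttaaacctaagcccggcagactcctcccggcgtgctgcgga
In Mcm5 and Mcm6, whose letters TTTCGCGC and TTTGGCGC overlap on opposite strands, the E2F letters form 1 run, and Mcm6 holds another one nearer the start. Cdk1 holds E2F letters, a pair of CHR matches and CCAAT on the opposite strand, while the Rrm2, E2f2 and Ccnb1 stretches hold CCAAT alone. Past the printed stretch the same E2f2 window holds TTTGGCGC after the start, and another window of E2f2 holds TTTGAA. A match is a string of letters and not a measured binding site.

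Every library held between 9212237 and 13613500 reads on genes, and each of the 51 members had at least 204 reads in every library. The deposited values are reads divided by a size factor per library, and are called normalized reads below. Both deleted genes were at 0 in all 6 dKO libraries, against 903 to 2267 normalized reads of Cebpa and 1353 to 1634 of Cebpb in WT. In LAPS, where reads of the rat gene may be counted on mouse Cebpb, Cebpb stood at 2538 to 4216. Cebpe, a relative of the deleted genes, stood at 2022 to 2272 in dKO and 371 to 517 in WT. All 7 markers of the labelled cell type (Ptprc, Kit, Itgam, Fcgr3, Hoxa9, Meis1 and Mpo) were detected in every group. Their summed level stood at 24352 to 29078 in C1 WT and 72910.1 to 91019 in C1 dKO, and at 15439 to 17818 and 36287 to 44049 in C2, with 4 of 7 higher in dKO in each clone and 2 lower in C1.

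**Figure D1:**
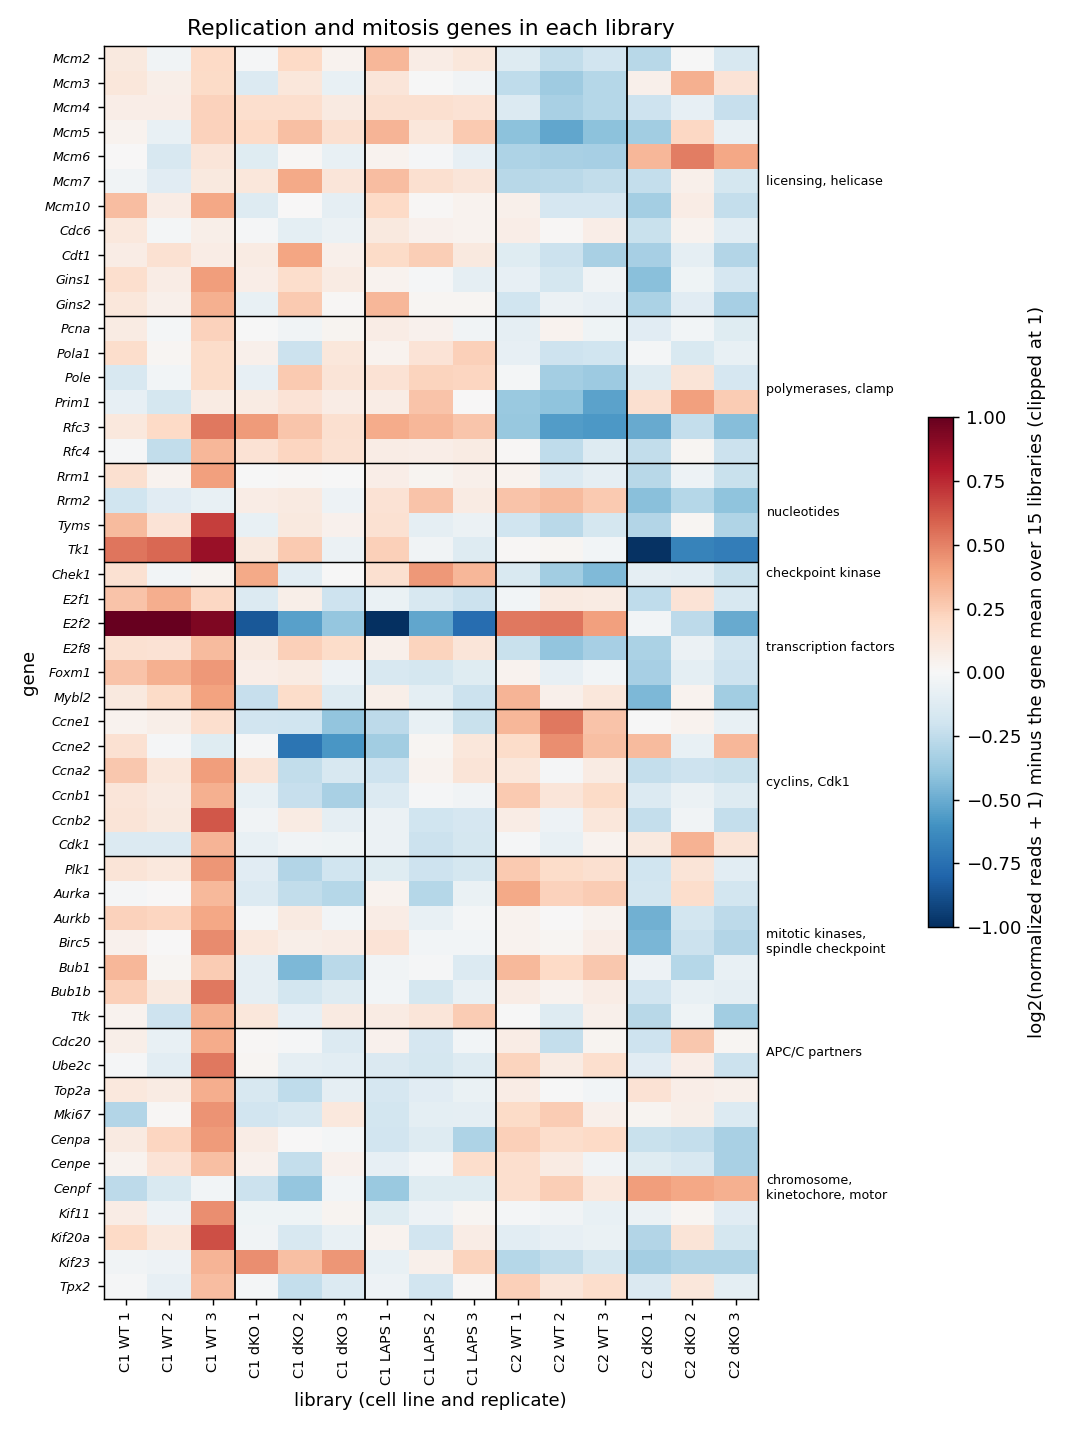
Level of each of the 51 genes (rows, by role) in each of the 15 libraries (columns), as log2(normalized reads + 1) minus the mean of that gene over all libraries, with red above and blue below the mean. C1 WT replicate 3 is the highest of its group in 44 of the 51 rows, E2f2 is red in WT and blue in C1 dKO and C1 LAPS, and the rows of the Mcm2-7 ring are blue in C2 WT.

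In a pair of groups 1 library stood above the others in most of these genes. C1 WT replicate 3 was the highest of the 3 C1 WT libraries for 44 of 51 members, among them 23 of the 24 mitosis genes. C2 dKO replicate 2 was the highest of its group for 42 of 51. The mean deviation of the 24 mitosis genes from their own mean over all libraries (log2) was 0.07, 0.04 and 0.40 in the C1 WT libraries, and -0.02, -0.11 and -0.06 in C1 dKO. In C2 it was 0.12, 0.04 and 0.07 in WT and -0.17, -0.0048 and -0.15 in dKO. Mitosis genes on average thus stood higher in all 3 WT libraries than in any dKO library within each clone. In C2 the replication genes did not split that way, with mean deviations of -0.07, -0.13 and -0.14 in WT and -0.20, -0.01 and -0.16 in dKO. In C1 these were 0.14, 0.09 and 0.27 in WT, 0.0043, 0.06 and -0.02 in dKO, and 0.07, 0.07 and 0.03 in LAPS, so that the WT libraries lay above the others of that clone by a small margin. In bulk RNA, fewer cells in a phase of the cycle and less mRNA in each such cell cannot be told apart.

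**Figure D2:**
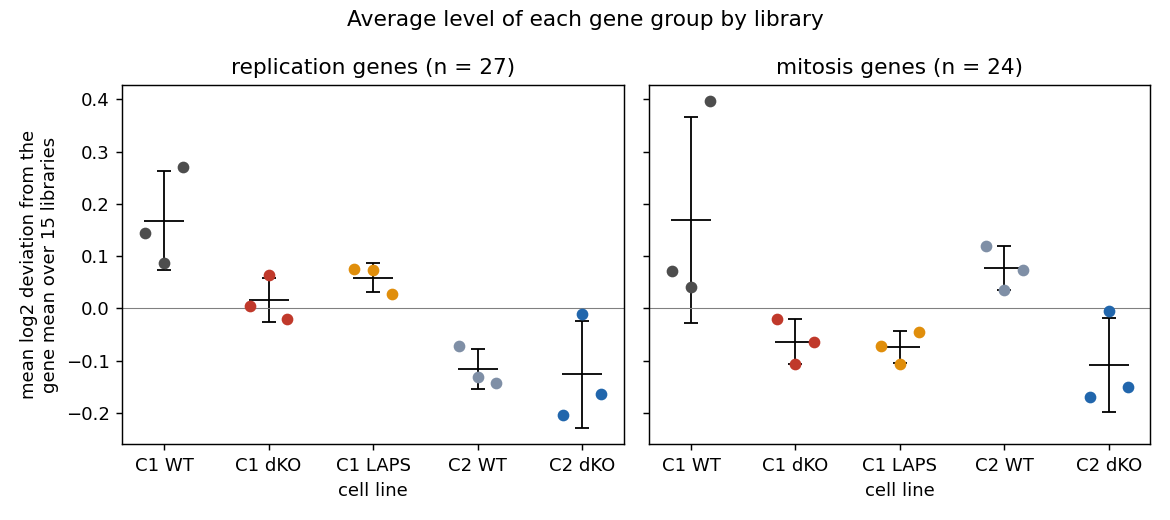
Mean log2 deviation of the 27 replication genes (left) and the 24 mitosis genes (right) from each gene's mean over 15 libraries, with points for the 3 libraries of a line and bars for their mean and SD. C1 WT replicate 3 lies at 0.40 for mitosis genes, above the other C1 WT libraries at 0.07 and 0.04, and the dKO libraries lie below WT for mitosis genes in both clones.

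Per kilobase of exon the members ranged from 77.3 normalized reads (Cenpf, a kinetochore protein) to 1926 (Rrm2, the regulated subunit of ribonucleotide reductase), with a median of 398. Next came the helicase subunit Mcm6 at 1738, the clamp Pcna at 1587 and Mcm3 at 1360 (all means over the 15 libraries). The lowest beside Cenpf were Pole at 94.1 and E2f2 at 100.3.

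The comparison of dKO with WT asked what loss of both C/EBP genes went with in each clone. In C1, 18 of the 51 members were lower in dKO and 1 was higher (limma, Benjamini-Hochberg adjusted p under 0.05), where 19.9% of all 12673 genes tested were lower and 17.1% higher. The members' median log2 fold change was -0.17, against -0.01 for all genes. In C2, 14 were lower and 4 higher, where 20.1% and 17.4% of all genes were, with a median of -0.12 against -0.03. Most of the lower calls in both clones were of mitosis genes, with 11 of 24 lower and 1 higher in C1 and 10 lower and none higher in C2 (limma, with 1 higher at an unadjusted p under 0.05 and 0 higher by edgeR or DESeq2). The replication genes went 7 lower and 0 higher in C1 (limma, with 2 higher at an unadjusted p under 0.05, 0 by edgeR and 2, Mcm7 and Rrm2, by DESeq2), and 4 lower and 4 higher in C2. Lower mitosis genes in C1 numbered 6 without WT replicate 3 and 7 without dKO replicate 3, where 20.1% and 17.2% of all genes were lower, and 6 under quantile normalization and 7 under scaling to total reads or a fit of the C1 groups alone. In C2 they numbered 5 of 24 (20.8%) without WT replicate 1, dKO replicate 1 or dKO replicate 3, near the 18.3%, 18.4% and 16.9% of all genes in those fits. The lower replication genes in C1 were 4 without dKO replicate 3, under quantile normalization and under scaling to total reads. Of the 14 mitosis members with the letters TTTGAA in the window 5 were lower in C1, and of the 5 without them 2 were, while in C2 3 of the 14 and 5 of the 5 were lower. Changes were small: in C1 only E2f2 passed 1 log2 unit, and in C2 no member did.

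The members lower in both clones were 10, namely Tk1, E2f2, Ccne1, Ccna2, Ccnb1, Plk1, Aurka, Aurkb, Bub1 and Cenpa. Of all genes tested 8.36% were lower in both. None of the members was higher in both (5.69% of all genes), none was called in opposite directions (4.1%), and 24 were called in neither clone (43.6%; all limma). Of the 10, Tk1, E2f2, Ccne1, Ccnb1 and Bub1 remained lower in both clones under each of the 9 other settings and with each library left out in turn. Without C1 WT replicate 3, 11 members were lower and 3 higher in C1, with a median of -0.08. Without C1 dKO replicate 3, 11 were lower. In C2, 9 were lower without WT replicate 1, without dKO replicate 1 or without dKO replicate 3, and 16 without dKO replicate 2. Under scaling to total reads, 11 were lower and 3 higher in C1 with a median of -0.09, and all genes in that comparison split as 2737 higher and 2012 lower in place of 2170 and 2516. Quantile normalization gave 10 lower and 3 higher members in C1 (all genes, 2681 higher and 2052 lower).

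**Figure D3:**
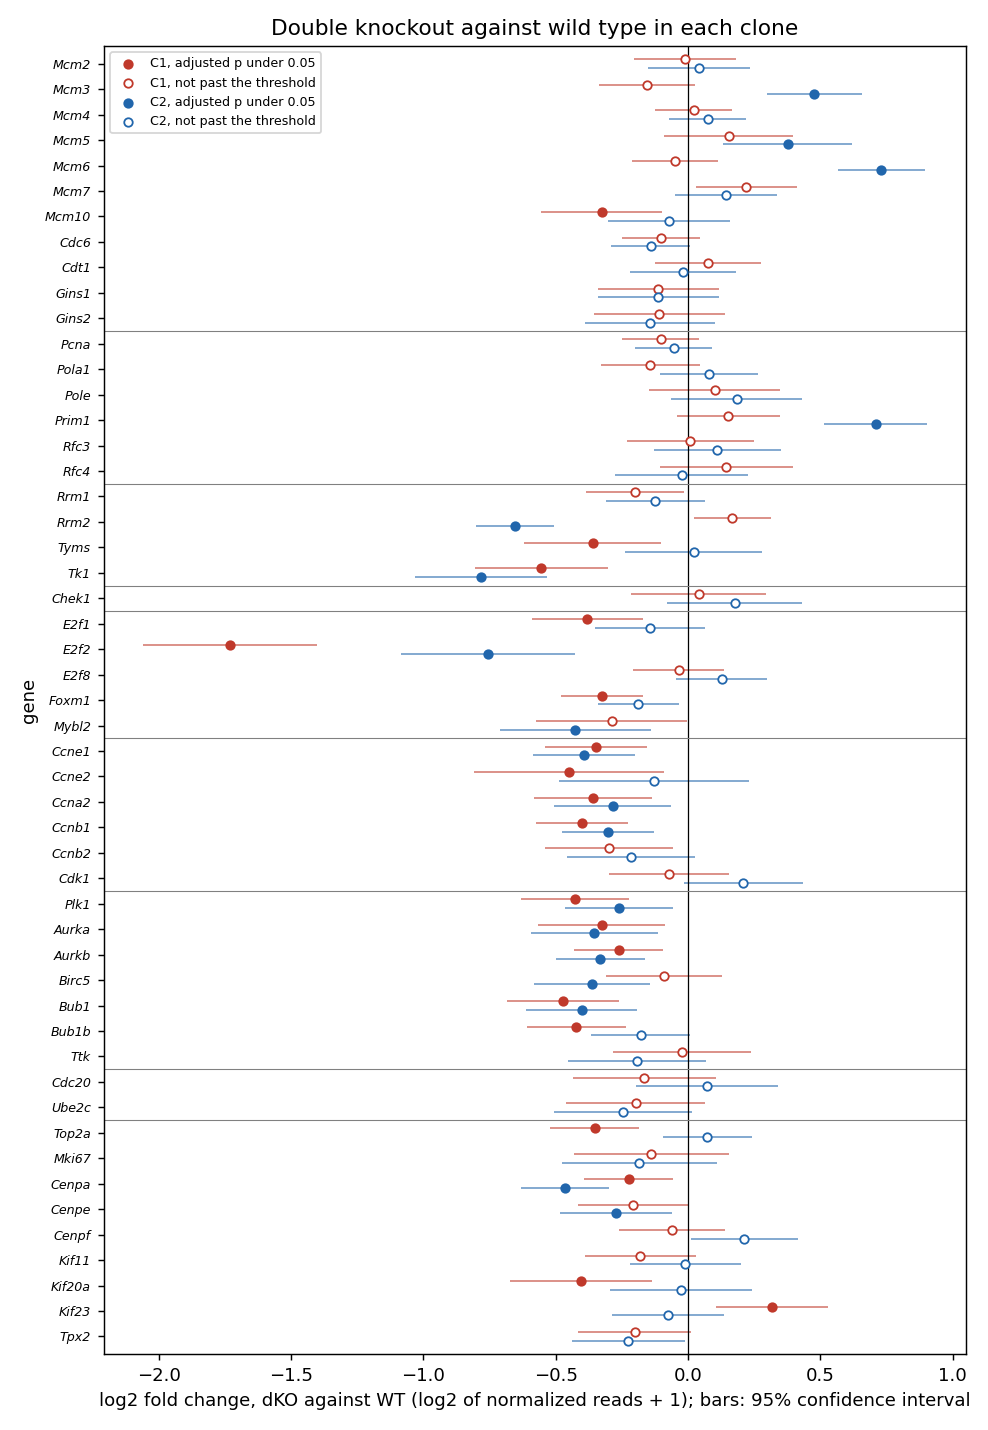
Log2 fold change of dKO against WT for the 51 genes, in C1 (red) and C2 (blue), with 95% confidence intervals as bars and filled points where the limma adjusted p was under 0.05. E2f2 in C1 lies farthest left at -1.73, Mcm6 and Prim1 in C2 farthest right at 0.73 and 0.71, and most mitosis genes lie left of 0 in both clones.

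Markers of other blood cells moved between the same groups. The 10 monocyte and macrophage markers summed to 30616 to 42613 normalized reads in C1 WT and 20243 to 23398 in C1 dKO, and to 18121 to 19712 and 13751 to 16077 in C2, where C1qa and C1qb were at 0. The 9 neutrophil markers stood at 20862 to 27545 in C1 WT and 78231 to 99600.4 in C1 dKO, at 32754 to 37617 in LAPS, and at 44568 to 78421 and 49934 to 77717 in C2 WT and dKO. The 4 eosinophil markers summed to 98.8 to 122 in C1 WT, where Prg2, Epx and Il5ra were at 0, and 7633 to 14246 in C1 dKO, and to 13.6 to 20.9 and 258 to 355 in C2. The 6 mast cell and basophil markers stood at 73.4 to 106 in C1 WT and 1710.4 to 1985 in C1 dKO, and at 170.4 to 180.2 and 889 to 1331 in C2. Of the monocyte and macrophage markers that passed the filter on low values, 7 of 7 were lower in C1 dKO, and of the neutrophil markers 9 of 9 were higher, of which 1 was at 0 in C1 WT and passed through other groups. In C2 dKO these lists went both ways, with 4 of 7 monocyte and macrophage markers lower and 1 higher, and 3 of 9 neutrophil markers higher and 2 lower. Of the mast cell and basophil markers 1 was lower in C2 dKO, against the direction of the sum. Markers of eosinophils, mast cells and basophils and erythroid cells were near or at 0 in some groups. They could pass the filter through the groups where they are high. Apart from the 1 lower mast cell and basophil marker, their summed levels therefore stand here without a count of tests. The 5 erythroid markers summed to 6.12 to 9.36 in C1 WT and 22.9 to 38.5 in C1 dKO, with Hba-a1 at 0, and to 11.9 to 23.8 and 13.6 to 24.7 in C2. The part of the shifts in these markers and in those of the labelled cell type in the results on replication and mitosis genes was not tested.

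Origin licensing and the helicase counted 11 members. In C1 dKO only Mcm10, which helps activate the loaded helicase, was lower (-0.33 ± 0.11, adjusted p = 0.0265; such values are log2 fold changes ± SE). That call was lost under quantile normalization and scaling to total reads and without C1 WT replicate 1 or 3 or C1 dKO replicate 1 or 3 (log2 -0.42 to -0.26 with a library left out). In C2 dKO, Mcm3, Mcm5 and Mcm6, subunits of the Mcm2-7 ring, were higher, and the other 8 passed in neither direction. Normalized reads of Mcm6 were 7995, 7168 and 8708 in C1 WT, 7366, 8043 and 7605 in C1 dKO, 8203, 7911 and 7567 in C1 LAPS, 6442, 6394 and 6349.7 in C2 WT, and 10042, 11395 and 10450.5 in C2 dKO. The 3 C2 dKO libraries lay above all others and the C2 WT libraries below all others, while C1 dKO and C1 WT overlapped. Mcm6 was 1.66-fold higher in C2 dKO (0.73 ± 0.077, adjusted p = 2.34e-06) and did not pass the test in C1 (-0.05 ± 0.077, 95% interval -0.21 to 0.11). Normalized reads of Mcm3 were 5476, 5264 and 5784 in C1 WT, 4598, 5466 and 4808 in C1 dKO, 5489, 5048 and 4946 in C1 LAPS, 4254, 3958 and 4155 in C2 WT, and 5244, 6462 and 5578 in C2 dKO. Its rise in C2 was 0.48 ± 0.085, adjusted p = 0.00036, with no overlap between the C2 groups. Mcm6, Mcm3 and, below, Prim1 and Kif23 are given in full because the clones differed in them, a choice made after their values were seen.

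Of the other subunits of the ring, Mcm2, Mcm4 and Mcm7 passed the test in neither clone. Normalized reads of Mcm2 were 4079.6, 3716 and 4387 in C1 WT, 3785, 4381 and 3912 in C1 dKO, 4789.6, 4020.0 and 4116 in C1 LAPS, 3489, 3218 and 3337 in C2 WT, and 3147, 3792 and 3416 in C2 dKO. Its dKO and WT libraries overlapped in both clones, with log2 fold changes of -0.01 ± 0.091 in C1 and 0.04 ± 0.091 in C2. Mcm4 gave 0.02 and 0.07, and Mcm7 0.22 and 0.14, neither past the test. Every dKO library of Mcm7 was above every WT library of its clone, and in C1 it was called higher under quantile normalization, scaling to total reads and DESeq2 and without C1 WT replicate 3. Mcm5 was higher in C2 at 0.38, a call lost under a fit of the compared groups alone and without C2 WT replicate 2 or C2 dKO replicate 2 (log2 0.24 to 0.51 with a library left out). The loaders Cdc6 and Cdt1 and the GINS subunits Gins1 and Gins2 lay between -0.14 and 0.07 in both clones, none past the test (Cdc6 was called lower in C2 without dKO replicate 2), and Gins2 shares 67.3% of its exon bases with Gse1 on the other strand, so its reads are uncertain where strand was not used in counting.

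Of the 6 polymerase, clamp and clamp loader genes, 1 changed in 1 clone. Prim1, the catalytic subunit of primase, which starts each new strand with RNA, had normalized reads of 891, 838 and 1002 in C1 WT, 998, 1038 and 992 in C1 dKO, 996, 1149 and 949 in C1 LAPS, 731, 716 and 652 in C2 WT, and 1056, 1259 and 1124 in C2 dKO. Every C2 dKO library lay above every other library of that clone, and C2 WT was the lowest group. The change was 1.63-fold in C2 (0.71 ± 0.091, adjusted p = 1.78e-05), and in C1 it was 0.15 ± 0.091, not past the test. Normalized reads of Pcna, the sliding clamp, were 4027, 3748 and 4459 in C1 WT, 3783, 3712 and 3866 in C1 dKO, 4011, 3925 and 3717 in C1 LAPS, 3568, 3895 and 3686 in C2 WT, and 3508, 3729 and 3503 in C2 dKO. Its libraries overlapped in both clones, and the log2 fold changes of -0.10 ± 0.069 and -0.05 ± 0.069 did not pass the test, with 95% intervals of -0.25 to 0.04 and -0.20 to 0.09. Pola1, Pole, Rfc3 and Rfc4 ranged from -0.14 to 0.18 in the 2 clones without a call, although Rfc4 was called higher in C1 without WT replicate 3.

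Of the 4 genes of nucleotide supply, Tk1 was lower in both clones. Tk1, the salvage thymidine kinase, had normalized reads of 1385, 1421 and 1742 in C1 WT, 1023, 1149.6 and 921 in C1 dKO, 1128, 931 and 874 in C1 LAPS, 964, 967 and 938 in C2 WT, and 482, 602 and 591 in C2 dKO. In each clone every dKO library was below every WT library. Tk1 was 1.47-fold lower in C1 (-0.55 ± 0.12, adjusted p = 0.00154) and 1.72-fold lower in C2 (-0.78 ± 0.12, adjusted p = 8.02e-05). Rrm2, the ribonucleotide reductase subunit that is made in S phase, had normalized reads of 4587, 4871 and 4997 in C1 WT, 5552, 5604 and 5089 in C1 dKO, 5814, 6402 and 5573 in C1 LAPS, 6403, 6559 and 6326 in C2 WT, and 3949, 4316 and 3994 in C2 dKO. It was lower in all 3 C2 dKO libraries than in any other library, while in C1 the 3 dKO libraries were above the 3 WT libraries. The fall in C2 was 1.57-fold (-0.65 ± 0.069, adjusted p = 2.43e-06), and in C1 the value was 0.17 ± 0.069, adjusted p = 0.0689. Scaling to total reads, quantile normalization, DESeq2 and leaving out C1 dKO replicate 3 each took Rrm2 in C1 past the threshold as higher. Its partner subunit Rrm1 gave -0.20 and -0.12, not past the test (called lower in C1 without WT replicate 2). Tyms, thymidylate synthase of the de novo pathway, was lower in C1 at -0.36, and gave 0.02 in C2. Its C1 call was lost under quantile normalization, scaling to total reads and a fit of the compared groups alone and without C1 WT replicate 3 or C1 dKO replicate 1 or 3 (log2 -0.48 to -0.21 with a library left out). The checkpoint kinase Chek1, which protects stalled forks, gave 0.04 and 0.18 without a call.

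**Figure D4:**
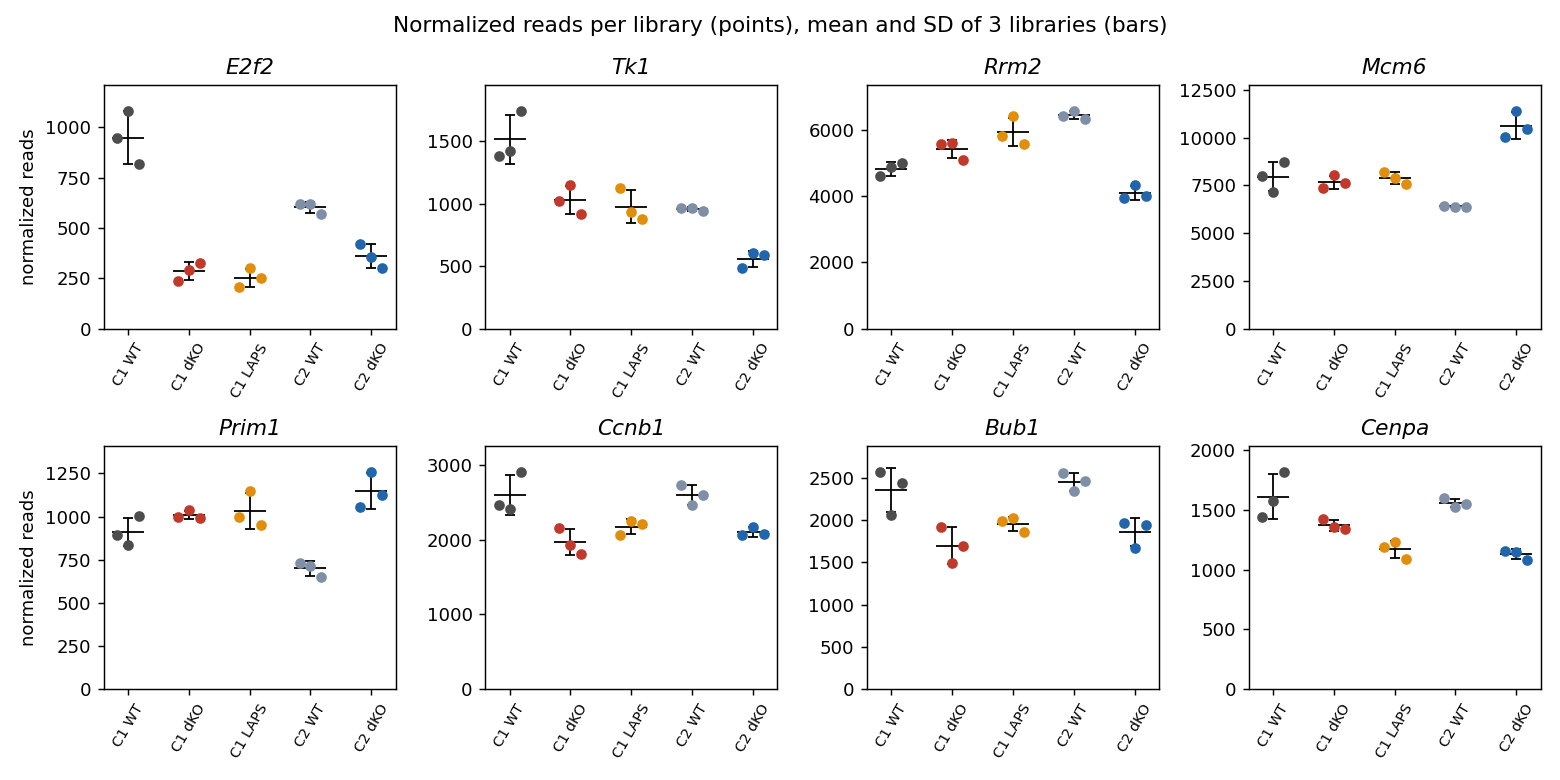
Normalized reads of 8 genes (E2f2, Tk1, Rrm2, Mcm6, Prim1, Ccnb1, Bub1 and Cenpa) in each library, with a point per library and bars for the mean and SD of the 3 libraries of a line, on axes that start at 0. E2f2 and Tk1 fall from WT to dKO in both clones, and Rrm2 falls and Mcm6 and Prim1 rise from WT to dKO in C2.

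Among the 5 cell cycle transcription factors E2f2 changed most. E2f2 encodes an activating E2F. Its normalized reads were 946, 1081 and 818 in C1 WT, 237, 293 and 327 in C1 dKO, 207, 299 and 252 in C1 LAPS, 616, 621 and 569 in C2 WT, and 421, 356 and 301 in C2 dKO. The WT libraries of C1 lay above all others, those of C2 came next, and no dKO library reached a WT library. E2f2 was 3.32-fold lower in C1 dKO (-1.73 ± 0.15, adjusted p = 3.4e-07) and 1.69-fold lower in C2 (-0.76 ± 0.15, adjusted p = 0.00116), the largest log2 change of any member in C1. With each library left out its log2 change was -1.84 to -1.60 in C1 and -0.88 to -0.64 in C2. E2f1, another activating E2F, had normalized reads of 879, 928 and 835 in C1 WT, 657, 750.0 and 626 in C1 dKO, 689, 647 and 620.1 in C1 LAPS, 709, 769.6 and 764 in C2 WT, and 605, 793 and 645 in C2 dKO. C1 dKO lay below C1 WT in every library (-0.38 ± 0.098, adjusted p = 0.00641), while the C2 groups overlapped (-0.14 ± 0.098, adjusted p = 0.274; called without C2 dKO replicate 2). E2f8, a repressing E2F that acts later in the cycle, had normalized reads of 1751, 1743 and 1966 in C1 WT, 1677, 1863 and 1788 in C1 dKO, 1630.4, 1842 and 1711 in C1 LAPS, 1348, 1201 and 1253 in C2 WT, and 1267, 1513 and 1378 in C2 dKO. Its dKO and WT groups overlapped in both clones, at -0.03 ± 0.081 and 0.13 ± 0.081, not past the test.

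The factors of the G2 programme were lower in 1 clone each by the test. Foxm1, the forkhead activator of mitotic genes, had normalized reads of 1113, 1168 and 1232 in C1 WT, 958, 966 and 882 in C1 dKO, 819, 808 and 838 in C1 LAPS, 935, 863 and 897 in C2 WT, and 726, 852 and 792 in C2 dKO. All dKO libraries lay below WT in both clones, with log2 fold changes of -0.32 ± 0.072, adjusted p = 0.00229 in C1 and -0.19 ± 0.072, adjusted p = 0.0527 in C2. In C2 a pseudocount of 0.1, scaling to total reads and leaving out dKO replicate 2 took it past the threshold. Mybl2, or B-MYB, had normalized reads of 1529, 1632 and 1894 in C1 WT, 1219, 1624 and 1309 in C1 dKO, 1490.2, 1337 and 1231 in C1 LAPS, 1811, 1485 and 1550.1 in C2 WT, and 1046, 1462 and 1122 in C2 dKO. C1 groups overlapped (-0.29 ± 0.13, adjusted p = 0.106) and C2 groups did not (-0.43 ± 0.13, adjusted p = 0.0201). That C2 call was lost under a fit of the compared groups alone and without C2 WT replicate 1 or C2 dKO replicate 1 or 3 (log2 -0.57 to -0.33 with a library left out), and the C1 value passed without C1 dKO replicate 2. Whether either factor differed between the clones was tested and no difference passed (0.14 ± 0.10, adjusted p = 0.355 for Foxm1 and -0.14 ± 0.19, adjusted p = 0.642 for Mybl2).

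Of the cyclins, 3 were lower in dKO of both clones. Ccne1, the cyclin of S phase entry, had normalized reads of 448, 456 and 492 in C1 WT, 384, 381 and 333 in C1 dKO, 366, 416 and 375 in C1 LAPS, 551, 631 and 534 in C2 WT, and 438, 450.1 and 416 in C2 dKO. The dKO libraries lay below WT in each clone, and the fall was -0.35 ± 0.091, adjusted p = 0.00655 in C1 and -0.39 ± 0.091, adjusted p = 0.00292 in C2. Ccnb1, the cyclin that turns on CDK1 at mitotic entry, had normalized reads of 2469, 2415 and 2907 in C1 WT, 2157, 1932 and 1808 in C1 dKO, 2065, 2246 and 2211 in C1 LAPS, 2727, 2467 and 2594 in C2 WT, and 2065, 2175 and 2071 in C2 dKO. No dKO library reached WT of its clone, and Ccnb1 fell 1.32-fold in C1 (-0.40 ± 0.081, adjusted p = 0.0011) and 1.23-fold in C2 (-0.30 ± 0.081, adjusted p = 0.00815). Ccna2, the cyclin of S and G2, had normalized reads of 3702, 3325 and 4122 in C1 WT, 3373, 2597 and 2747 in C1 dKO, 2662, 3159 and 3359.6 in C1 LAPS, 3329, 3058 and 3262 in C2 WT, and 2613, 2671 and 2634 in C2 dKO. C1 dKO replicate 1 reached the C1 WT range and the C2 groups did not overlap (-0.36 ± 0.10, adjusted p = 0.0132 in C1 and -0.28 ± 0.10, adjusted p = 0.0426 in C2). In C2 the Ccna2 call was lost under settings that included no filter and edgeR and without C2 WT replicate 1, 2 or 3 or C2 dKO replicate 1, 2 or 3 (log2 -0.32 to -0.26 with a library left out). In C1 it was lost under quantile normalization and a fit of the compared groups alone and without C1 WT replicate 3 or C1 dKO replicate 2 or 3 (log2 -0.47 to -0.28 with a library left out). Of its exon bases 12.5% are shared with Exosc9 on the other strand.

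Cdk1, the kinase these cyclins bind, passed the test in neither clone. Normalized reads of Cdk1 were 2506, 2504 and 3476 in C1 WT, 2617, 2689 and 2664 in C1 dKO, 2637, 2371 and 2431 in C1 LAPS, 2722, 2614 and 2817 in C2 WT, and 2939, 3497 and 3011 in C2 dKO. In C2 every dKO library was above every WT library, and in C1 the groups overlapped, with -0.07 ± 0.11 in C1 and 0.21 ± 0.11 in C2, neither past the test. The difference between the log2 changes of Cdk1 and Ccnb1 was not tested. Ccnb2, the other B cyclin, gave -0.30 in C1 (adjusted p = 0.0517), where edgeR, DESeq2 and leaving out WT replicate 1 or 2 called it lower, and -0.21 in C2. Ccne2 was lower in C1 at -0.45, with overlapping libraries, and gave -0.13 in C2. The C1 call of Ccne2 was lost under settings that included a pseudocount of 0.1, no filter, quantile normalization, scaling to total reads, a fit of the compared groups alone, edgeR and DESeq2 and without C1 WT replicate 1 or 2 or C1 dKO replicate 2 or 3 (log2 -0.66 to -0.31 with a library left out).

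Kinases, passenger proteins and the spindle checkpoint formed the role with the most lower members. Its lower members were 5 of 7 in C1 and 5 of 7 in C2, where 19.9% and 20.1% of all genes were. That count was 3 in C1 without WT replicate 3 or dKO replicate 3, and 3 in C2 without WT replicate 1 or dKO replicate 3. Without C2 dKO replicate 1 it was 2, no more than among the cyclins with Cdk1 or the genes of nucleotide supply. In C1 without WT replicate 3, as many of the cyclins with Cdk1 were lower, so the rank was lost there too. Plk1, the Polo kinase of mitotic entry and spindle assembly, had normalized reads of 1515, 1494 and 1887 in C1 WT, 1281, 1132 and 1210.0 in C1 dKO, 1279, 1205 and 1230.2 in C1 LAPS, 1664, 1577 and 1547 in C2 WT, and 1207, 1520.3 and 1287 in C2 dKO. The dKO libraries lay below WT in both clones (-0.43 ± 0.096, adjusted p = 0.00241 in C1 and -0.26 ± 0.096, adjusted p = 0.0444 in C2). The C2 call of Plk1 was lost under settings that included no filter, a fit of the compared groups alone, edgeR and DESeq2 and without C2 WT replicate 1, 2 or 3 or C2 dKO replicate 1 or 3 (log2 -0.36 to -0.19 with a library left out). Bub1, a kinase of the spindle checkpoint, had normalized reads of 2569, 2059 and 2431 in C1 WT, 1917, 1488 and 1687 in C1 dKO, 1983, 2019.7 and 1854 in C1 LAPS, 2549, 2341 and 2461 in C2 WT, and 1967, 1671 and 1937 in C2 dKO. Its groups did not overlap in either clone, and it fell 1.39-fold in C1 (-0.47 ± 0.099, adjusted p = 0.00143) and 1.32-fold in C2 (-0.40 ± 0.099, adjusted p = 0.00458). Bub1b, its relative in the same checkpoint, fell in C1 (-0.42 ± 0.088) and gave -0.18 in C2, called lower there only when the C2 groups were fitted alone.

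The Aurora kinases were lower in both clones. Aurka, which acts at spindle poles, had normalized reads of 1307, 1325 and 1653 in C1 WT, 1200.5, 1115 and 1084 in C1 dKO, 1355, 1087 and 1265 in C1 LAPS, 1719.8, 1549.7 and 1575 in C2 WT, and 1162, 1489 and 1161 in C2 dKO. The dKO libraries lay below WT in each clone (-0.33 ± 0.11, adjusted p = 0.0329 and -0.35 ± 0.11, adjusted p = 0.0217). Aurka lost its C1 call under no filter, quantile normalization, scaling to total reads and a fit of the compared groups alone and without C1 WT replicate 3 or C1 dKO replicate 2 or 3 (log2 -0.39 to -0.22 with a library left out), and its C2 call without C2 WT replicate 1 or C2 dKO replicate 1 or 3 (log2 -0.47 to -0.29 with a library left out). Aurkb, the kinase of the chromosomal passenger complex, had normalized reads of 1682, 1668 and 1884 in C1 WT, 1419, 1530.3 and 1410.3 in C1 dKO, 1512, 1366 and 1417 in C1 LAPS, 1469.9, 1442 and 1469 in C2 WT, and 1030.5, 1263 and 1200.2 in C2 dKO. It fell in both clones with no overlap (-0.26 ± 0.079, adjusted p = 0.016 in C1 and -0.33 ± 0.079, adjusted p = 0.00355 in C2), and its C1 call was lost under quantile normalization and scaling to total reads and without C1 WT replicate 3 or C1 dKO replicate 3 (log2 -0.30 to -0.21 with a library left out). Birc5, or survivin, of the same complex, was lower in C2 at -0.36 and gave -0.09 in C1. The C2 call was lost without C2 dKO replicate 1 (log2 -0.41 to -0.29 with a library left out). The checkpoint kinase Ttk gave -0.02 and -0.19, not past the test.

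The 2 partners of the APC/C, which ends mitosis by degrading cyclin B, passed no test in either clone by limma, edgeR or DESeq2 (0 at an unadjusted p under 0.05 by limma). Cdc20, its activator, gave -0.17 and 0.07. Ube2c, its ubiquitin-conjugating enzyme, gave -0.20 and -0.25, with 22.8% of its exon bases shared with Tnnc2 on the other strand.

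Of the 9 chromosome, kinetochore and motor genes, Cenpa was lower in both clones. Cenpa, the histone H3 variant of centromeres, had normalized reads of 1441, 1571 and 1817 in C1 WT, 1424, 1357 and 1335 in C1 dKO, 1185, 1232 and 1091 in C1 LAPS, 1594, 1526 and 1549 in C2 WT, and 1157, 1145 and 1081 in C2 dKO. No dKO library reached WT of its clone, with -0.22 ± 0.079, adjusted p = 0.0358 in C1 and -0.46 ± 0.079, adjusted p = 0.000242 in C2. In C1 that call was lost under settings that included no filter, quantile normalization, scaling to total reads and a fit of the compared groups alone and without C1 WT replicate 2 or 3 or C1 dKO replicate 2 or 3 (log2 -0.30 to -0.13 with a library left out), and it held in C2 with each library left out. Top2a, the topoisomerase that untangles sister chromatids, had normalized reads of 10606, 10426 and 12656 in C1 WT, 8828, 8245 and 9221 in C1 dKO, 8781, 9093 and 9375 in C1 LAPS, 10335, 9826 and 9641 in C2 WT, and 10859, 10303 and 10177 in C2 dKO. It was lower in C1 dKO without overlap (-0.35 ± 0.079, adjusted p = 0.00228), and in C2 the groups overlapped (0.07 ± 0.079, 95% interval -0.10 to 0.24). Mki67, which encodes the proliferation antigen Ki-67, had normalized reads of 6523, 8046 and 10859 in C1 WT, 6996, 7127 and 8559 in C1 dKO, 7031, 7467 and 7482 in C1 LAPS, 9125, 9489.8 and 8273 in C2 WT, and 8113, 8305 and 7254 in C2 dKO. The groups overlapped in both clones at -0.14 ± 0.14 and -0.18 ± 0.14, and Mki67 had the widest spread of any member among the C1 WT libraries, with a coefficient of variation of 26.0%.

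Among the motors, Kif23 was higher and Kif20a lower in C1 dKO. Kif23, a motor of the central spindle in cytokinesis, had normalized reads of 860.3, 851 and 1114 in C1 WT, 1214, 1085 and 1197 in C1 dKO, 837, 914 and 1028 in C1 LAPS, 721, 741 and 779.6 in C2 WT, and 698, 714 and 714 in C2 dKO. It was the only member higher in C1 dKO (0.32 ± 0.10, adjusted p = 0.0207), with C1 WT replicate 3 inside the dKO range. The call was lost under a fit of the compared groups alone and without C1 WT replicate 1 or 2 or C1 dKO replicate 1 or 3 (log2 0.25 to 0.44 with a library left out). In C2 Kif23 gave -0.08. Kif20a, another motor of cytokinesis, was lower in C1 at -0.40 and gave -0.03 in C2, with 29.3% of its exon bases shared with Cdc23 on the other strand. Its C1 call was lost under quantile normalization, scaling to total reads and a fit of the compared groups alone and without C1 WT replicate 3 or C1 dKO replicate 2 (log2 -0.51 to -0.24 with a library left out). Kif11, which pushes spindle poles apart, gave -0.18 and -0.01, and the spindle assembly factor Tpx2 -0.20 and -0.23, none past the test (without 1 library, Kif11 was called lower in C1 without WT replicate 2, and Tpx2 in C2 without dKO replicate 2). Cenpe, a kinetochore motor, was lower in C2 at -0.27, a call lost under no filter and edgeR and without C2 WT replicate 1 or 2 or C2 dKO replicate 2 or 3 (log2 -0.33 to -0.21 with a library left out). Cenpf gave 0.21 in C2, with every dKO library above WT, and passed only when the C2 groups were fitted alone.

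Whether the dKO effect differed between C2 and C1 was tested as an interaction. It passed for 7 of 51 members, with a more positive effect in C2 for 5 and a more negative one for 2, where 15.1% and 14.3% of all genes did so (limma). The effect was more positive in C2 for Mcm6 (0.78 ± 0.11, adjusted p = 6.65e-05), Mcm3 (0.63 ± 0.12, adjusted p = 0.00091), Prim1 (0.56 ± 0.13, adjusted p = 0.00395), E2f2 (0.98 ± 0.22, adjusted p = 0.00317) and Top2a (0.43 ± 0.11, adjusted p = 0.00907). It was more negative for Rrm2 (-0.82 ± 0.098, adjusted p = 1.57e-05) and Kif23 (-0.39 ± 0.14, adjusted p = 0.0478). Mcm3, Mcm6, Prim1, Rrm2 and E2f2 kept this call in each of the 9 other settings and with each of 12 libraries left out. Top2a lost it under quantile normalization and scaling to total reads. Kif23 lost it under a pseudocount of 0.1, no filter, edgeR and DESeq2 and without C1 WT replicate 1 or 2, C1 dKO replicate 1 or 3, C2 WT replicate 1, 2 or 3 or C2 dKO replicate 1, 2 or 3 (log2 -0.52 to -0.32 with a library left out). Without C1 WT replicate 3 the difference was more negative in C2 for 4 members, Birc5 and Cenpa among them, and the members' median was -0.0046. Of the 7, 2 belong to mitosis, and no cyclin, mitotic kinase or checkpoint gene passed the test of a difference (limma, with 0 at an unadjusted p under 0.05 and 0 by edgeR or DESeq2; Bub1b passed without C1 WT replicate 2). Scaling to total reads moved the median of all genes in this contrast by -0.12 and that of the members from 0.08 to -0.04, and split all genes called as 1457 more positive and 2489 more negative in place of 1910 and 1810. Quantile normalization gave a members' median of -0.03.

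The parental WT clones were compared with each other. In C2 WT, 23 members were lower than in C1 WT and 3 were higher, where 21.3% and 19.7% of all genes were (limma). Of the 11 licensing and helicase genes 9 were lower, with a median log2 difference of -0.32, and 18 of the 27 replication genes and 5 of the 24 mitosis genes were. The licensing count was 5 without C1 WT replicate 3, C2 WT replicate 2 or C2 WT replicate 3, and the replication count 11 without C2 WT replicate 2 or 3. Mitosis genes lower were 1 without C1 WT replicate 3, 2 without C2 WT replicate 1 or in a fit of these groups alone, and 3 without C2 WT replicate 2 or under quantile normalization. Rfc3, a subunit of the clamp loader, differed most (-0.78 ± 0.11, adjusted p = 3.86e-05), at 486, 519 and 652 normalized reads in C1 WT and 348, 306 and 302 in C2 WT. Tk1 (-0.66), E2f2 (-0.65), Tyms (-0.60), E2f8 (-0.52) and Mcm5 (-0.51) followed among those that kept the call in each other setting and with each library left out. Higher in C2 WT were Rrm2 (0.42 ± 0.069, adjusted p = 0.000147), Ccne1 (0.29) and Cenpf (0.32). The 4 members that rose in C2 dKO were lower in C2 WT than in C1 WT, namely Mcm3 (-0.42), Mcm5, Mcm6 (-0.31) and Prim1 (-0.38). Both contrasts share the C2 WT libraries, so these values stand side by side without a test. Without C1 WT replicate 3, 13 members were lower in C2 WT, without C2 WT replicate 2, 14 lower and 1 higher, and without C2 WT replicate 3, 15 lower. Of all genes 18.9%, 18.6% and 18.5% were lower in those fits. Without C1 WT replicate 1 only Rrm2 was higher. Of the markers tested, 5 of 7 monocyte and macrophage ones were lower in C2 WT, 5 of 9 neutrophil ones higher (1 of them at 0 in C1 WT) and 1 lower, and 3 of 7 of the labelled cell type lower and 1 higher, and their part in these differences was not tested.

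The LAPS line was compared with the dKO line of C1 to ask what went with the rat C/EBPβ isoform LAP*. In this comparison LAP* and the derivation of the line cannot be told apart. No member passed the test in either direction (limma, where 1.43% of all genes were higher and 3.03% lower). At an unadjusted p under 0.05, 1 member was higher and 3 lower. edgeR called none and DESeq2 called Kif23 lower. Kif23 had the smallest adjusted p (-0.33 ± 0.10, adjusted p = 0.0737), with every LAPS library below every dKO library. Cenpa (-0.23 ± 0.079) and Foxm1 (-0.19 ± 0.072) were also below dKO in all 3 libraries. Of the 51 members, every LAPS library lay below every dKO library for 6, the others being Gins1 (-0.13 ± 0.11), Rfc4 (-0.09 ± 0.12) and Ube2c (-0.09 ± 0.12). The LAPS libraries lay above for 3, Mcm10 (0.15 ± 0.11), Cdc6 (0.11 ± 0.069) and Rrm1 (0.05 ± 0.088). None of these members passed the limma test, and the share of all genes split in this way was not determined. The highest value was that of Ccne2, which gave 0.37 ± 0.17. The median over the members was 0.04, and the 95% intervals of all 51 lay between -0.55 and 0.73. For E2f2 the interval of the difference was -0.51 to 0.15, for Tk1 -0.33 to 0.17, and for Ccnb1 -0.02 to 0.32. E2f2 stood at 948 ± 131 normalized reads in C1 WT (SD, n = 3), 253 ± 45.7 in LAPS and 286 ± 45.8 in dKO.

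**Figure D5:**
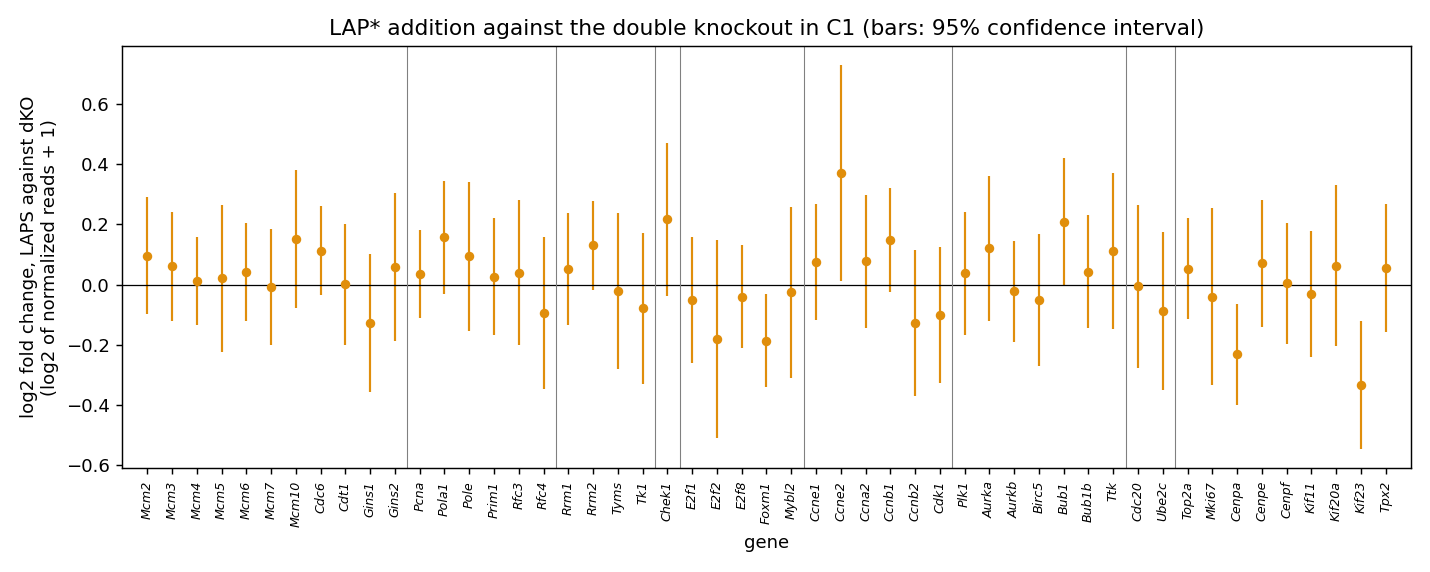
Log2 fold change of LAPS against dKO in C1 for the 51 genes in order of role, with 95% confidence intervals as bars. No gene passed the limma test, Kif23 lies lowest at -0.33 and Ccne2 highest at 0.37.

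Against C1 WT, LAPS had 15 members lower and 1 higher, where 18.3% and 14.2% of all genes were (limma). E2f2 (-1.91 ± 0.15, adjusted p = 1.23e-07), Tk1 (-0.63 ± 0.12, adjusted p = 0.000555), Foxm1 (-0.51 ± 0.072, adjusted p = 4.5e-05) and Cenpa (-0.46 ± 0.079, adjusted p = 0.000299) were lower, and Rrm2 was the 1 higher (0.30 ± 0.069, adjusted p = 0.00334). Their dKO values against the same WT libraries were -1.73, -0.55, -0.32, -0.22 and 0.17. These 5 with E2f1 and Plk1 kept the call in each other setting and with each library left out. Without C1 WT replicate 3, 10 of the 51 members were lower, near the 18.6% of all genes lower in that fit. In the same fit 2 members were higher, where 14.5% of all genes were. When only the groups compared were fitted, 7 members were lower. Scaling to total reads gave 9 lower and 3 higher members, and quantile normalization 9 and 4, where all genes went from 1796 higher and 2322 lower to 2354 and 1935, and to 2521 and 1910. Between the same groups, 6 of 7 monocyte and macrophage markers were lower in LAPS, summing to 20663 to 23276 normalized reads, and 4 of 9 neutrophil markers were higher. In LAPS the eosinophil markers summed to 969 to 1933 and the mast cell and basophil markers to 407 to 494, above the C1 WT ranges given with the dKO comparison. The 7 markers of the labelled cell type summed to 74034 to 85879 in LAPS, with 2 higher and 2 lower, and the part of these shifts in the values of the members was not tested.

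Beyond the members, 121 other genes of replication and mitosis in 5 lists were all tested. In C1 dKO 21 were lower and 4 higher (median -0.08), in C2 17 lower and 18 higher (median -0.03). These are 17.4% lower and 3.31% higher in C1 and 14.05% and 14.9% in C2, each below the share of all genes (19.9% and 17.1%, and 20.1% and 17.4%). Of 37 kinetochore, spindle and condensin genes 10 (27.0%) were lower in C1, and 9 (24.3%) lower and 4 (10.8%) higher in C2. Of 22 genes of mitotic entry and exit 8 (36.4%) were lower in C1, and 7 (31.8%) lower and 1 (4.55%) higher in C2. Of 17 origin and licensing genes 1 was lower and 2 higher in C1, and 3 (17.6%) were higher in C2. The 30 fork and nucleotide genes had 1 lower and 1 higher in C1 and 5 (16.7%) higher in C2, and the 15 genes of the RB, E2F and DREAM list 1 lower and 1 higher in C1 and 1 lower and 5 (33.3%) higher in C2. LAPS against dKO gave 1 lower over all 121.

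Named genes of these lists were those with the largest change among the genes called alike in both clones. Pttg1, or securin, which holds separase inactive until anaphase, had log2 fold changes of -0.96 in C1 and -0.49 in C2. Cdc25b, a phosphatase that activates CDK1, gave -0.55 in C1 and -0.71 in C2, and Mastl, the Greatwall kinase, -0.41 in C1 and -0.43 in C2. In the spindle list Cep55, which acts at the midbody in abscission, gave -0.54 in C1 and -0.41 in C2, Anln, of the contractile ring, -0.40 in C1 and -0.39 in C2, and the condensin subunit Ncapg -0.32 in C1 and -0.41 in C2. E2f7, the repressing relative of E2f8, gave -0.58 in C1 and -0.42 in C2, and Tfdp1, the partner with which E2F factors bind DNA, rose by 0.19 in C1 and 0.55 in C2. Among licensing genes Mcm9, a helicase of DNA repair, rose by 0.31 in C1 and 0.64 in C2, and Wdhd1, an adaptor of polymerase alpha, by 0.23 in C1 and 0.40 in C2. No gene of the fork and nucleotide list was called alike in both clones.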

How the data were processed

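RNA from 15 libraries was sequenced by the authors after poly(A) selection in a stranded protocol. Per the labels and the study's methods, they aligned reads to mm10 with STAR 2.5.3a, counted genes with HTSeq 0.10.0 and scaled them with DESeq2 1.26.0. The deposited values are this normalized signal: read counts divided by a size factor per library (0.747 to 1.13). The annotation and the strand setting of the counting are not given in the sources used here. In each library the values were whole multiples of 1 step (tolerance 0.1 reads), so whole reads were recovered for 100% of values. Rows that name no gene (5, with 22.4% to 26.2% of reads) were left out, as were 3 columns that matched no sample.

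The filter kept genes that reached 10 normalized reads in 3 or more libraries (12673 of 24520 with any read), which were tested on log2(normalized reads + 1) with limma 3.58.1 (R 4.3.3), with 1 mean per line over all 15 libraries and Benjamini-Hochberg adjustment over all genes tested, at 0.05. A fold change on this scale understates the change of low genes. Other settings were pseudocounts of 0.1 and 5, no filter, quantile normalization, scaling to total reads, only the groups compared, a block for the replicate number, edgeR 4.0.16 and DESeq2 1.42.0 on the recovered reads, and each library left out. Positions of exons are from GENCODE vM21 (mm10). The method was tested on simulated data.

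Members and gene lists were chosen with earlier results of these data known. Some marker genes in these lists are not reported here singly. Values in every library are given for 15 members chosen by role, for those called the same way in both clones, and for Mcm3, Mcm6, Prim1 and Kif23, chosen after their values were seen. Replicates are harvests of 1 line, so p-values measure the spread between harvests.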

Additional observations from a re-analysis of the deposited data

Results flagged for a closer look

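In 7 of 51 members the dKO effect differed between C2 and C1 by the interaction test of limma over all genes. It was more positive in C2 for 5 and more negative for 2, where 15.1% and 14.3% of all genes were. The difference of log2 fold changes, C2 minus C1, was 0.98 for E2f2 (-1.73 in C1 and -0.76 in C2), 0.78 for Mcm6 (-0.05 and 0.73), 0.63 for Mcm3 (-0.15 and 0.48), 0.56 for Prim1 (0.15 and 0.71) and 0.43 for Top2a (-0.35 and 0.07). It was -0.82 for Rrm2 (0.17 and -0.65) and -0.39 for Kif23 (0.32 and -0.08). Top2a lost the call under quantile normalization and scaling to total reads. Kif23 kept it in 5 of the 9 other settings and with 2 of 12 libraries left out. With a library left out the E2f2 difference ranged from 0.85 to 1.10 and that of Rrm2 from -0.87 to -0.79. The clones come from different mice, so clone, animal and deletion event cannot be told apart in these differences.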

How the results depend on the processing

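Counts of members kept within 1.5 times of those given for most settings. In C1 dKO against WT, members higher were 3 under quantile normalization, scaling to total reads and DESeq2 and 0 when only the groups compared were fitted, and members lower were 10 under quantile normalization and 11 under scaling to total reads. For the clone difference, more negative members were 1 with a pseudocount of 0.1, without a filter, with edgeR and with DESeq2. DESeq2 called 1 member lower in LAPS against dKO. In LAPS against WT, quantile normalization gave 4 higher and 9 lower, scaling to total reads 3 and 9, and fitting only the groups compared 7 lower. With 1 library left out, C1 dKO against WT gave 0 to 3 higher and 11 to 19 lower, C2 gave 3 to 4 and 9 to 16, the clone difference 5 to 7 and 1 to 4, LAPS against WT 1 to 2 and 10 to 17, LAPS against dKO 0, and C2 WT against C1 WT 1 to 4 and 13 to 27. The cause was not tested.

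Over the single members and comparisons, 98 of 2754 values under another setting lost a call and 25 gained one, and 122 of 2142 with a library left out lost a call and 27 gained one. No member with a call reversed direction in any setting, and 220 values without a call changed sign. Same-numbered libraries of a clone correlated between -0.17 and 0.30 in their deviations from group means, and other pairs between -0.25 and 0.21. These overlapping ranges do not settle whether the numbers pair the samples, and the main fit used no pairing. With the replicate block, C1 gave 1 higher and 16 lower, C2 4 and 12, the clone difference 5 and 2, LAPS against dKO 0, LAPS against WT 1 and 14, and C2 WT against C1 WT 3 and 21. The block ended the calls of Ccne2 and Cenpa in C1, of Ccna2 and Plk1 in C2, of Ccna2 and Ccnb1 in LAPS against WT, and of Mcm2, Mcm7 and Gins1 between the WT clones, and it added Bub1 in LAPS against WT and E2f1 between the WT clones. Members had 204 reads or more in each library, and with 3 libraries a line the median half-width of the 95% interval was 0.21 (log2) in C1.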
